A study of Homo sapiens with 6 samples.

Results

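The genes described here are those of the cytosolic ribosomal proteins, chosen by symbol: names of the form RPL or RPS with a number (and a closing A or X where there is one), and RPLP0, RPLP1, RPLP2 and RPSA. In all, 52 such genes had a probe set that the platform annotation ties to 1 gene, out of 13738 genes tested, and 32 of them code for the large subunit and 20 for the small subunit. All 52 passed the filter on dim probe sets. A further 15 genes of the rule are named only by probe sets that list several genes, and these were not analysed here. Each member is read by its brightest single-gene probe set, which is the one with the highest mean over the 6 arrays.

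The series holds 6 Affymetrix GeneChip expression arrays, each with 1 labelled RNA, from AGS, a line from a gastric adenocarcinoma, and from HGC-27, a line from an undifferentiated gastric carcinoma. For each line there is 1 array of parental cells, which were not transfected, 1 array of a GFP control (nucleofection of empty vector, 3 µg, with a GFP plasmid, 1.5 µg), and 1 array of cells that received MIST1 plasmid (3 µg) with the same amount of GFP plasmid. The 2 transfected populations were sorted on GFP at 24 h and grown for another 24 h, and no label says that the parental cells were sorted. MIST1 is the basic helix-loop-helix factor of secretory cells encoded by BHLHA15, expression was transient, the promoter of the construct is not given in the labels, and the study looked for genes that it raises. The replicates of a condition are the 2 lines, with 1 array each, so p-values measure the spread between single arrays of different lines, and technical and line differences cannot be told apart in it.

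A cytosolic ribosome is built from a small and a large subunit, in which ribosomal RNA is folded around many small proteins that are made in near-equal amounts. The genes are among the most highly expressed of growing cells, and most of their mRNAs start with a C followed by a run of pyrimidines, the terminal oligopyrimidine (TOP) tract, through which mTORC1 and LARP1 control their translation. Their processed pseudogenes are very numerous, so microarray probes for them often match other sequences as well.

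As a check of the labels, the BHLHA15 probe set gave no sign of the construct. The 3 AGS arrays read 66.34 (parental), 75.85 (GFP control) and 72.51 (MIST1), and the HGC-27 arrays 41.14, 61.87 and 58.68 in the same order. Neither the species of the cDNA nor the part of the transcript it holds is stated, so the label MIST1 is used as given and has no support from this probe set. Most epithelial markers read high in AGS, with EPCAM between 5681 and 7097.84, KRT18 between 14741.1 and 16978.2 and KRT8 between 8978.34 and 11898. CDH1 was far dimmer there, at 220.68 to 291.37. In HGC-27 EPCAM (22.99 to 34.38) and KRT18 (21.85 to 35.81) lay below the array medians of 49.92 to 51.96, but KRT8 read 1349.5 to 1562.1, CDH1 was at 89.76 and 75.44 in the transfected arrays, and VIM read 12532.1 to 13731.2. Of the 6 arrays, the gastric genes MUC5AC (70.51 to 127.14) and MUC6 (58.36 to 99.22) were above the median on 6, but dim in both lines. TFF1 was above it on the 3 arrays of AGS (1042.93 to 1665.44), GKN1 on 1 and TFF2 on 0. Of the 8 markers of other cell types, VIM, COL1A1 and PECAM1 (80.89 to 100.94) were above the median on 6 arrays, CD3E on 4, COL3A1 on 3, PTPRC on 1, and CD14 and VWF on 0.

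The start of the transcript is shown first because the TOP tract is the feature these genes are known to share. Each window below runs from 15 bases before to 15 bases after the start of a RefSeq transcript (GRCh38.p14), read 5′ to 3′ on the strand of the gene, and the capitals mark the run of C and T that begins at the first transcribed base. The genes are those on which the comparisons turn.
RPL18 (chr19:48619164-48619193, - strand): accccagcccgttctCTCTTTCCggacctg
RPS19 (chr19:41860240-41860269, + strand): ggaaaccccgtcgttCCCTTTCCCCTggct
RPS16 (chr19:39435935-39435964, - strand): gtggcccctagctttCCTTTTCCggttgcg
RPL36 (chr19:5690280-5690309, + strand): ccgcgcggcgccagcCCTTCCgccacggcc
RPL29 (chr3:51995881-51995910, - strand): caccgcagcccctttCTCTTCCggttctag
RPS25 (chr11:119018329-119018358, - strand): tctgagcagcgcttcCTTTTTgtccgacat
RPL12 (chr9:127451392-127451421, - strand): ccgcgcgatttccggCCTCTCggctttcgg
RPL14 (chr3:40457324-40457353, + strand): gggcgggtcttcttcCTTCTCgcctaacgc
RPL35A (chr3:197950175-197950204, + strand): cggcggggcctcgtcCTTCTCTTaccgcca
RPS7 (chr2:3575245-3575274, + strand): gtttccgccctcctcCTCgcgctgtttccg
RPS6 (chr9:19380222-19380251, - strand): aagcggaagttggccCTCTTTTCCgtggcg
RPL22 (chr1:6199581-6199610, - strand): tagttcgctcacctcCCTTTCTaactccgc
RPS4X (chrX:72277234-72277263, - strand): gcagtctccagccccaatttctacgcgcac
A window was available for 46 of the 52 members. With a tract defined as C at the first base and at least 5 bases of C or T in a row, 34 of the 46 genes (73.9%) held one in at least 1 window, against 5.14% of the 27305 genes of the same table. Among related genes the share was 59.3% for translation factors and other mRNAs of the TOP class, 12.5% for ribosome assembly factors and 8.11% for mitochondrial ribosomal proteins. RPS19 has 2 windows in the table, of which the first is shown, and its run of 11 bases was the longest of those printed. RPS7 has a run of 3 bases in this window and RPS4X starts with A, so neither counts as holding a tract here, which says only that these letters do not stand at the annotated start.

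On every array most members lay near the top of the measured range. The highest intensity of an array was between 15697.1 and 19070.5, and 48 of the 52 members reached at least 50% of it on 1 or more arrays. RPS19 was the brightest probe set of both transfected AGS arrays, and 131 other genes also lay in this range. The median member stood at the 99.6 to 99.7th percentile of the genes tested on all 6 arrays. Intensities this close to the top may be compressed, so a difference of these members is a difference of the deposited signal and may understate a difference in RNA. The 4 members outside this range were RPL14 (6928.17 to 7807.19), RPL27A (531.9 to 877.57), RPL36A (37.85 to 88.95) and RPLP2 (27.71 to 85.96). The last of these codes for an acidic stalk protein that every ribosome carries, and its partner gene RPLP1 is read at 14250.2 to 14884.6, but levels of different probe sets are not comparable and the low reading describes the probe set, not the gene.

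By probe set name, 14 members are read by a set ending in _x_at, whose probes may match other transcripts, 28 by a set ending in _s_at, which is shared by transcripts of a family or gene, and 10 by a plain _at set. All 14 _x_at members lay near the maximum. The median difference of the GFP control from parental cells was 0.04 on the log2 scale for _x_at members and 0.03 for the other 38, and the median difference of MIST1 from the GFP control was -0.02 in both.

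**Figure D1:**
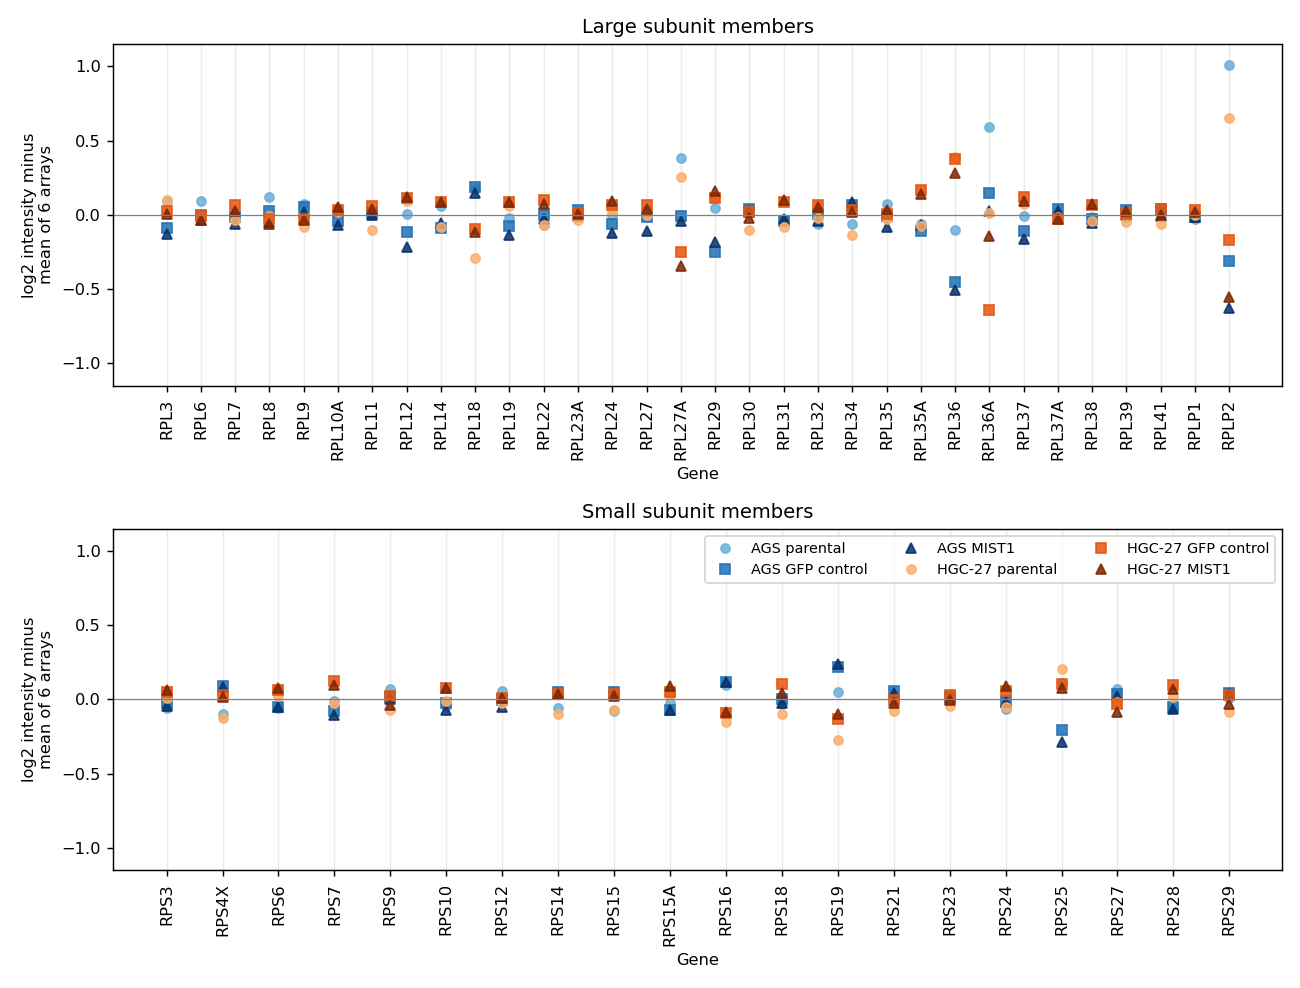
Deposited log2 intensity of each of the 52 members on the 6 arrays, as the difference from that gene's own mean over the arrays (vertical axis, log2 units), with large subunit genes in the upper panel and small subunit genes in the lower one. Blue symbols are AGS and orange symbols HGC-27; most genes stay close to 0 on all arrays, while RPLP2, RPL36A, RPL27A and RPL36 spread most.

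No ribosomal protein gene separated the MIST1 arrays from the GFP controls. With limma, 0 of 52 members had an adjusted p under 0.05, as had 0% of the 13738 genes, and 0 members had an unadjusted p under 0.05, against 181 genes in all. The median member differed by -0.02 on the log2 scale, the same as the median of all genes (-0.02), and the members lay closer together (SD across genes 0.06 against 0.16). In bulk samples of this kind, fewer cells with a transcript and less of it per cell cannot be told apart.

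The members known for a regulatory role gave the same picture. RPS6, the small subunit protein phosphorylated by S6 kinase downstream of mTORC1, was at 14903.4 (GFP control) and 14874.8 (MIST1) for AGS, and at 16171.1 and 16288.8 for HGC-27. RPL11, which can hold MDM2 and so stabilise p53 when ribosome assembly fails, was at 10882.9 and 10770 for AGS and at 11280.7 and 11081.2 for HGC-27. RPS14, whose loss underlies the anaemia of the 5q- syndrome, was at 14357 and 14228.9 for AGS and at 14259.2 and 14225.6 for HGC-27. The differences of these 3 genes lay between -0.03 (RPL11 in HGC-27) and 0.01 (RPS6 in HGC-27) on the log2 scale.

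The highest fitted differences with the same sign in both lines were 0.05 ± 0.08 (SE, n = 2 lines) for RPL29, a large subunit protein, 0.02 ± 0.03 for RPS19 and 0.02 ± 0.05 for RPS15A, all with an adjusted p of 0.99998 in limma. The lowest were those of RPLP2 (-0.35 ± 0.24), RPL36 (-0.07 ± 0.09) and RPL27A (-0.06 ± 0.12), also at 0.99998. Signs were uneven without any member passing: 31 members were lower in both lines and 6 higher in both. Over all genes tested 32.6% were lower in both lines and 24.3% higher. The shift of the median member depended on which scaling was used. With arrays set to equal medians the median member stood at 0.00. With quantile normalization it stayed at -0.02, against -0.01 for all genes. The 4 RNAs added at sample preparation were also lower with MIST1 in both lines, 4 of 4, by a median of -0.21 in AGS and -0.05 in HGC-27, while those added at hybridization were at 0.02 and 0.06; their part in the signs of the members was not tested.

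RPL36A, a protein of the large subunit near the exit site for transfer RNA, was the one member with a marked split between lines. In AGS its GFP control was at 65.32 and its MIST1 array at 60.15, a difference of -0.12. In HGC-27 the same arrays were at 37.85 and 53.44, a difference of 0.50. Its probe set lies near the median of all values (50.53), and each of these is a difference of 2 single arrays, with no test. No member reached 1.5-fold in either line, where 1.83% of all genes did in AGS and 2.44% in HGC-27.

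Transfection and sorting, read as the GFP control against parental cells, gave no called change in any member. The largest positive values were those of RPS4X and RPS19, and the lowest were those of the dim members RPLP2, RPL36A and RPL27A, followed by the bright members RPS25 (-0.21 ± 0.07, adjusted p = 0.162) and RPL36 (-0.18 ± 0.09, adjusted p = 0.272). In limma 0 of 52 members had an adjusted p under 0.05, against 0.247% of all genes (34), and 10 members had an unadjusted p under 0.05, of 3165 genes. The median member differed by 0.04, against 0.07 for all genes. The lines differed in this: in AGS the median member stood at -0.01 (0.00 for all genes), and in HGC-27 at 0.07 (0.13 for all genes), with 42 of 52 members above 0. The array medians over all genes tested moved alike, from 8.51 to 8.45 on the log2 scale for AGS and from 8.22 to 8.40 for HGC-27, and the 4 RNAs added at hybridization moved by a median of 0.10 in AGS and 0.22 in HGC-27. The 4 RNAs added at sample preparation moved further, by a median of 0.24 in AGS and 0.46 in HGC-27, with 4 of 4 higher in each line. The part of these in the shift of the members was not tested.

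Among bright members, RPS4X, a small subunit protein encoded on the X chromosome, had the largest positive difference. The AGS arrays (parental, GFP control, MIST1) were at 13471.6, 15368.3 and 15256.9, and the HGC-27 arrays at 13202.8, 14722 and 14541.8. Both transfected arrays of each line lay above its parental array, and the groups did not overlap; the fitted difference between GFP control and parental cells was 0.17 ± 0.04 (SE, n = 2), adjusted p = 0.0779. RPS19, the small subunit protein most often mutated in Diamond-Blackfan anaemia, went from 16738.8 (parental) to 18849.5 (GFP control) for AGS and from 13377.1 to 14798 for HGC-27. Its fitted difference was 0.16 ± 0.03, adjusted p = 0.0807, and that of RPL34 was 0.15 ± 0.05, adjusted p = 0.130.

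The lowest values came from the 3 dimmest members. RPLP2 went from 85.96 (parental) to 34.5 (GFP control) for AGS, and from 67.07 to 37.93 for HGC-27. Both parental arrays exceeded the overall median of 50.53 and all other arrays were under it. RPLP2 thus passed the filter only through its parental arrays, which favours a fall from them. The fitted difference was -1.07 ± 0.24 (adjusted p = 0.0819 in limma). RPL27A, a large subunit protein, was at 877.57 and 671.35 for AGS and at 805.36 and 567.99 for HGC-27, a difference of -0.45 ± 0.12 (adjusted p = 0.112). RPL36A was at 88.95 and 65.32 for AGS and at 59.63 and 37.85 for HGC-27, a difference of -0.55 ± 0.23 (adjusted p = 0.220). At 1.5-fold or more, RPLP2 in AGS and RPLP2 and RPL36A in HGC-27 were lower, while 14% of all genes in AGS and 18.5% in HGC-27 moved that far in either direction.

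The differences of single members had the same sign in both lines in 33 of the 52 (24 higher in both, 9 lower in both). Of all genes tested, the GFP control stood above parental cells in each line for 37.1% and below them in each line for 23.4%. Across the 52 genes the AGS and HGC-27 differences of GFP control from parental correlated at Pearson r = 0.85 (Spearman rho = 0.60), at r = 0.62 across the 48 near the maximum, and at r = 0.39 across all genes tested. For MIST1 against the GFP control the correlation between lines was 0.28 across the 52 and 0.21 across all genes. These are descriptions across genes, which are not independent replicates, and probe sets with a common sequence enter more than once. Without a parental array that group keeps 1 sample, which is assumed to vary like the others, and the spread comes from the GFP control and MIST1 arrays alone, which lie close together. Under that assumption 22 members passed without the AGS parental array (20 higher, 2 lower) among 39.1% of all genes, and 15 without the HGC-27 parental array (5 higher, 10 lower) among 33.7%. Without the HGC-27 MIST1 array 2 members passed, among 6.73% of all genes, and without the AGS MIST1 array 1 did, among 6.59%.

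**Figure D2:**
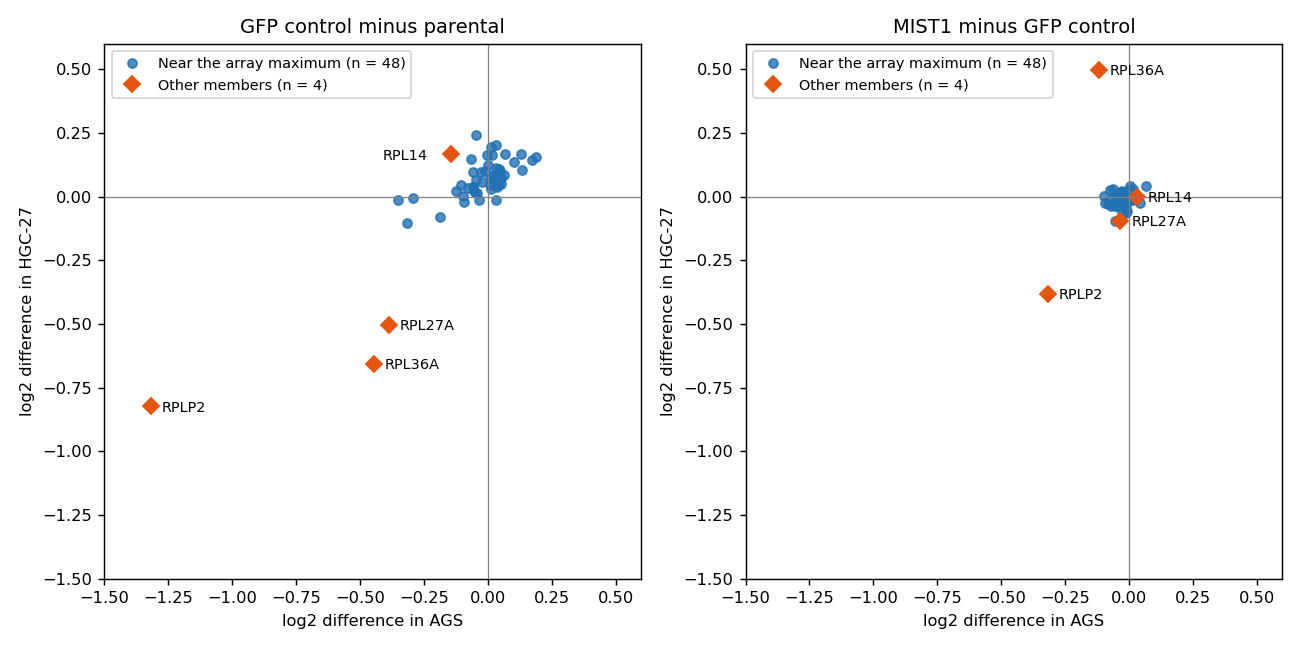
Log2 difference of each member in AGS (horizontal axis) and in HGC-27 (vertical axis), for the GFP control minus parental cells (left) and for MIST1 minus the GFP control (right); each point is 1 gene, and orange diamonds are the 4 members that do not reach the top range of the arrays. In the left panel RPLP2, RPL36A and RPL27A are low in both lines, and in the right panel the 48 bright members lie close to 0.

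Against parental cells, 2 members passed in the arrays labelled MIST1, 1 in each direction. These were 1.92% higher and 1.92% lower of the 52, against 2.13% and 1.17% of all genes (3.3% together). RPS19 rose to 19070.5 in AGS from 16738.8 and to 15116.8 in HGC-27 from 13377.1, a fitted difference of 0.18 ± 0.03 (SE, n = 2), adjusted p = 0.0488 in limma. RPLP2 fell to 27.71 in AGS from 85.96 and to 29.12 in HGC-27 from 67.07, a difference of -1.42 ± 0.24, adjusted p = 0.0421. The second of these starts near the median of all values and ends near the floor of 17.6, and no detection calls were used here. Only its parental arrays lie above that median, so RPLP2 passed the filter through them alone. Its fall from parental cells is thus partly set by the filter, and the call is not independent support for it. RPS19 passed in 2 of 16 alternative settings and RPLP2 in 10 of 16. With the average over its probe sets in place of the brightest, RPS19 stood at -0.03. Its other bright set differed from parental cells by 0.13 in AGS and 0.11 in HGC-27. Its dim set (78.73 to 174.25) differed by -0.44 and -0.33. RPS4X (0.16 ± 0.04, adjusted p = 0.0688), RPL34 (0.15 ± 0.05, 0.108) and RPL27A (-0.51 ± 0.12, 0.0713) did not pass. Within AGS 1 member and within HGC-27 2 members differed by 1.5-fold or more from parental cells, against 18.1% and 18.3% of all genes. This comparison and the preceding one share the parental arrays, and the MIST1 arrays differed little from the GFP controls in these genes. Without the AGS parental array 19 members passed (39.4% of all genes) and without the HGC-27 parental array 20 did (38.3%), with the spread again taken from the transfected arrays alone. Without the AGS GFP control, the HGC-27 GFP control or the AGS MIST1 array 1 member passed (3.30% to 6.20% of all genes).

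Probe sets of the same gene did not always give the same difference. In all, 33 of the 52 genes had over 1 single-gene probe set, which gave 59 further sets. Of those that passed the filter, the 20 that lay near the array maximum (16 genes) had median differences of GFP control from parental of -0.03 in AGS and 0.09 in HGC-27, close to the sets used. The 9 that lay between 3% and 50% of the maximum (7 genes) had medians of -0.42 in both lines, and 7 of the 9 were lower in both. The 20 below 3% of the maximum had medians of -0.30 and 0.24.

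RPL22, RPL38 and RPL37A, chosen after their values were seen, show the split most clearly. RPL22 codes for an RNA-binding large subunit protein whose paralog RPL22L1 can replace it. Its brightest set, an _x_at set, read 10230.6, 10707.5 and 10508.2 for AGS (parental, GFP control, MIST1) and 10222, 11491.3 and 11270 for HGC-27, so parental cells were lowest in both lines. Its plain _at set was at 2146.6, 1603.69 and 1412.23 for AGS and at 2846.36, 2177.51 and 2104.26 for HGC-27, so parental cells were highest. The same gene thus stood at 0.07 and 0.17 (AGS, HGC-27; GFP control minus parental) by the bright set and at -0.42 and -0.39 by the dimmer one.

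RPL37A differed most. Its brightest set, an _s_at set, differed by 0.03 in AGS and -0.01 in HGC-27, while its _x_at set was at 1553.24, 652.16 and 657.71 for AGS and at 1707.2, 595.7 and 591.69 for HGC-27, a difference of -1.25 and -1.52. For RPL38 the brightest set differed by -0.01 and 0.10, and the _s_at set by -0.55 and -0.91. Parental arrays were the highest in each of these dimmer sets, and the 2 transfected arrays of a line lay close together. The plain _at set of RPL37A, dimmer still, differed between the lines. It read 160.12, 114.69 and 117.91 for AGS and 56.76, 118.03 and 121.25 for HGC-27, where the parental array was thus lowest. The array's control probe set for the middle of 18S ribosomal RNA read 1141.74 in parental AGS and 370.52 in parental HGC-27. In the transfected arrays it read 46.8 to 52.66. The control probe set for the other large ribosomal RNA did not follow this pattern. It read 2005.11 in parental AGS and 1513.7 in parental HGC-27, against 1959.94 to 2249.72 in the transfected arrays. The ratio of 3′ to 5′ signal was 0.97 to 1.05 for ACTB and 0.83 to 0.88 for GAPDH over the 6 arrays. What part differences in the RNA prepared or in signal compression have in the split was not tested.

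**Figure D3:**
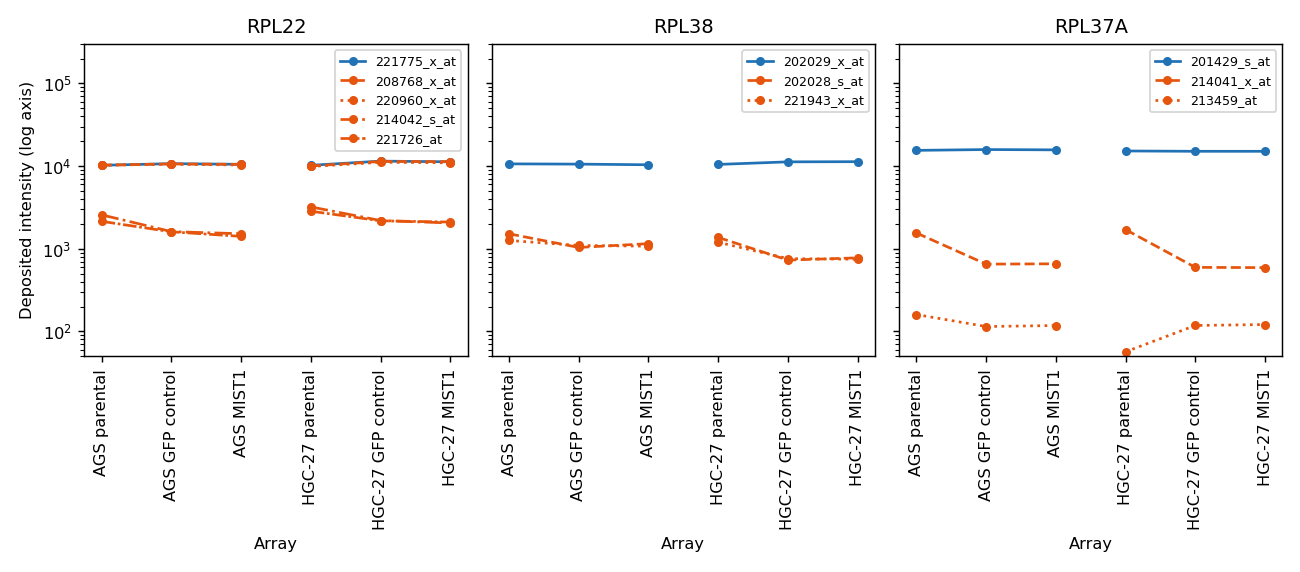
Deposited intensity (log axis) of the single-gene probe sets of RPL22, RPL38 and RPL37A on the 6 arrays, with the probe set used for the gene in blue and the others in orange. Sets near the top of the range stay level from parental to transfected arrays, while most of the dimmer sets are highest in the parental array of each line.

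Between the lines the members differed far less than other genes. In limma, 14 of 52 members (26.9%) had an adjusted p under 0.05 for AGS against HGC-27, against 60.4% of all genes. Of these, 4 were higher in AGS (7.69%, against 33.2% of all genes) and 10 lower (19.2%, against 27.3%). The SD of the difference across genes was 0.17 for the members and 1.60 for all genes. Within a condition, 0 members differed by 1.5-fold or more between the parental arrays (48.9% of all genes did), 2 between the GFP controls (45.8%; RPL36 and RPL36A) and 1 between the MIST1 arrays (46.4%; RPL36). Of the 131 other genes near the array maximum on 1 or more arrays, 76.3% passed, with a median absolute difference of 0.28. For the 48 members in that range these values were 29.2% and 0.07. What part the nearness of most members to the array maximum has in this was not tested. The n here is the 3 conditions, and repeat cultures of a line under 1 condition were not measured.

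The 4 members that were higher in AGS were RPL18, RPS19, RPS16 and RPS27. RPL18, a large subunit protein mutated in some families with Diamond-Blackfan anaemia, was at 13783.3, 13888.3 and 13506.5 for AGS and at 9969.12, 11430.4 and 11266.6 for HGC-27. The 2 lines did not overlap, and the fitted difference was 0.34 ± 0.05 (SE, n = 3 conditions), adjusted p = 0.00101. RPS19 differed by 0.34 ± 0.03 (adjusted p = 7.87e-05), with 16738.8 to 19070.5 in AGS and 13377.1 to 15116.8 in HGC-27. RPS16, a small subunit protein, differed by 0.22 ± 0.03 (adjusted p = 0.000736), with 16979.5 to 17270 in AGS and 14297.2 to 14975 in HGC-27. The difference of RPS27 was small (0.09 ± 0.03, adjusted p = 0.0443) and turned to -0.05 with arrays set to equal medians.

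RPL36, a large subunit protein, showed the largest difference of all members. It was at 6824.57, 5353.44 and 5154.22 for AGS and at 9572.28, 9495.21 and 8898.55 for HGC-27. Every HGC-27 array lay above every AGS array, with a fitted difference of -0.70 ± 0.07 (adjusted p = 0.000195), which is 1.63-fold lower in AGS. RPL29 followed at -0.26 ± 0.06, with AGS at 8285.94 to 10145.3 and HGC-27 at 10649.8 to 10981.3. RPS25, which several viral and cellular internal ribosome entry sites need, differed by -0.25 ± 0.06, and its AGS parental array (8921.99) lay above both transfected HGC-27 arrays. RPL12, a protein at the base of the stalk to which elongation factors bind, differed by -0.22 ± 0.05. The other 6 were RPL37, RPL19, RPL24, RPS28, RPS6 and RPS15A, at -0.19 to -0.11.

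RPL18, RPS19 and RPL36 passed in all 16 alternative settings run for this comparison. For 7 of the 14 genes 9 further probe sets near the maximum could be compared, and all 9 had the sign of the set used. Dimmer sets did not all follow. That of RPL18 stood at -0.40, -0.06 and 0.11 (AGS minus HGC-27 in parental, GFP control and MIST1 arrays). A dim set of RPS15A stood at 0.33, 0.14 and -0.33, and its other dim set was lower in AGS throughout. The dimmer sets of RPL36, RPL37, RPS28, RPS16 and RPS19 kept the sign in every condition. Of the 13 genes printed above with a start sequence, those higher and those lower in AGS both hold a tract: 10 of the 34 members with a tract passed between the lines, and 2 of the 12 with none in any window. The count for the whole group moved with the setting. It was 4 without a trend in the variance or without the filter, 23 with quantile normalization (4 higher, 19 lower), and 27 with arrays set to equal medians (2 higher, 25 lower), which also moved the median of all genes from 0.06 to -0.08. It was 34 and 35 without the AGS or the HGC-27 parental array, where the spread comes from the transfected arrays alone and 72.8% of all genes passed, 7 and 8 without the AGS or HGC-27 GFP control, and 9 without either MIST1 array.

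**Figure D4:**
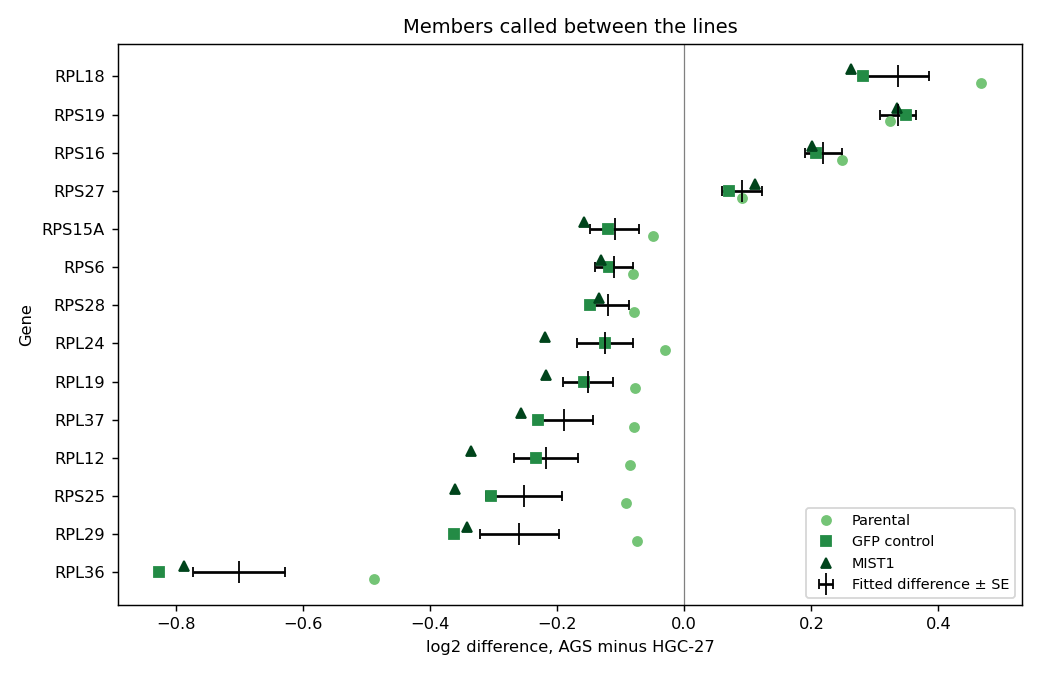
Log2 difference between AGS and HGC-27 for the 14 members that passed the test, with 1 symbol for each condition and the fitted difference with its standard error in black. RPL18, RPS19, RPS16 and RPS27 lie to the right of 0 (higher in AGS) in all 3 conditions, and RPL36 lies farthest to the left.

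Of the 4 genes higher in AGS, 3 lie on the same chromosome. RPS16, RPS19 and RPL18 lie on the long arm of chromosome 19, at the start windows given above, and RPS27 lies on chromosome 1. The stretch between RPS16 and RPL18, chosen after these values were seen, holds 189 other genes tested. Their median difference was 0.89 in favour of AGS, and 65.1% of them passed as higher in AGS and 5.82% as lower, against 33.2% and 27.3% of all genes. Over chromosome 19 as a whole (963 genes) the shares were 40.0% and 27.6%. Chromosome 19 holds 7 members, of which 3 passed as higher in AGS and 2 as lower. The 2 that were lower, RPL36 and RPS28, lie outside this stretch. Copy number was not measured here, and the part it has in these values was not tested.

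**Figure D5:**
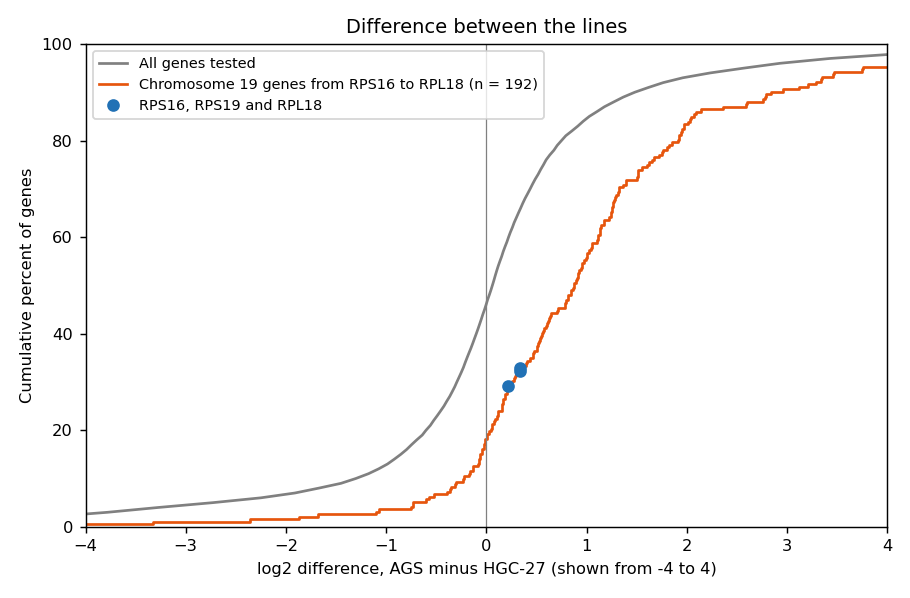
Cumulative percent of genes (vertical axis) by log2 difference between AGS and HGC-27 (horizontal axis, shown from -4 to 4) for all genes tested and for the 192 genes from RPS16 to RPL18 on chromosome 19, with these 3 members as blue points (RPS19 and RPL18 nearly coincide). The curve of the chromosome 19 genes lies to the right of that of all genes, and the 3 members lie in its lower part.

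Whether transfection moved the members differently in the lines was tested as an interaction, with the GFP control and MIST1 arrays of a line taken as 2 samples. The spread in this fit comes only from those 2 arrays of each line. In limma 5 of 52 members (9.62%) passed, all with a lower change from parental cells in AGS than in HGC-27. Of all genes 10.1% passed (2.62% higher and 7.53% lower). The median member stood at -0.09 and the median of all genes at -0.12.

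RPL36 went from 6824.57 in parental AGS to 5353.44 and 5154.22 after transfection, and in HGC-27 from 9572.28 to 9495.21 and 8898.55, a difference between lines of -0.32 ± 0.07 (adjusted p = 0.0481). RPL14, a large subunit protein, went from 7661.2 to 6928.17 and 7080.65 in AGS and from 6957.6 to 7806.99 and 7807.19 in HGC-27. It thus stood lower after transfection in AGS and higher in HGC-27, with a difference of -0.30 ± 0.05 (adjusted p = 0.0301).

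RPL29 differed by -0.28 ± 0.06 (adjusted p = 0.0413), with 10145.3 in parental AGS against 8285.94 and 8663.78 after transfection, and 10683.9 against 10649.8 and 10981.3 in HGC-27. RPL35A, another protein linked to Diamond-Blackfan anaemia, read 9936.75, 11762.3 and 11555.5 in HGC-27, while AGS read 10039.9, 9711.01 and 10004.5, giving -0.26 ± 0.05 (adjusted p = 0.0350). RPS7, a small subunit protein that can bind MDM2, differed by -0.22 ± 0.05 (adjusted p = 0.0422). Further probe sets of RPL14, RPL29, RPL35A and RPS7 had the same sign, 4 of 4. In this comparison 47 of the 52 members had a negative value, so a shared sign adds little to the calls. RPL14, RPL29 and RPL35A lie on chromosome 3, where 8.25% of the 764 genes tested passed as lower.

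These 5 calls depend on the scaling, while their direction does not turn in the 12 alternatives run. With arrays set to equal medians over the genes tested none of the 5 passed, at -0.11 (RPL36), -0.08 (RPL14), -0.06 (RPL29), -0.04 (RPL35A) and -0.0047 (RPS7). In that setting 3 other members passed, all 3 with a higher change in AGS, and the median member stood at 0.12 and the median of all genes at 0.09. With quantile normalization 2 members passed, both lower. Without any 1 of the 4 transfected arrays a line keeps 1 transfected sample, and no count is read from those fits.

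Genes that work with the ribosome gave a frame for these values. The lists were chosen with earlier results of these data known, and they are described by counts with no test of the list. For MIST1 against the GFP control 0 of 31 translation factors and other TOP mRNAs, 0 of 39 ribosome assembly factors, 0 of 76 mitochondrial ribosomal proteins and 0 of 14 mTORC1 pathway genes passed, with medians of -0.01, -0.03, -0.03 and 0.05 and unadjusted p under 0.05 in 0, 0, 2 and 1 genes (limma). For the GFP control against parental cells none of these lists had a gene past the threshold either, and the medians were -0.03, -0.10, -0.07 and -0.02, against 0.04 for the members, with unadjusted p under 0.05 in 9, 5, 14 and 3 genes.

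Between the lines 60.4% of all genes passed (33.2% higher and 27.3% lower in AGS), and the shares of these lists are read against that. Ribosome assembly factors passed in 27 of 39 genes, 6 higher and 21 lower in AGS, with a median of -0.39. The RNA polymerase I factor UBTF (-1.30), the kinase RIOK1 (-1.28) and the nucleolar protein NOLC1 (-1.26) were lower in AGS. Mitochondrial ribosomal proteins passed in 48 of 76, 11 higher and 37 lower, and translation factors in 21 of 31, 10 higher and 11 lower, among them EIF5A (-1.17), EIF4B (-0.88) and EEF1D (0.67). Of the 14 mTORC1 pathway genes 2 passed as higher and 6 as lower. The S6 kinase gene RPS6KB2 was higher in AGS (0.45), DEPTOR, an inhibitor of mTOR, was lower (-5.13 on the log2 scale), as were MYC (-1.24) and EIF4EBP1 (-1.17), the repressor of cap-dependent initiation. All of these had an adjusted p under 0.05 in limma.

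In the interaction, lower means a lower change from parental cells in AGS than in HGC-27, not a lower level. As lower there passed 17 of 39 ribosome assembly factors, 21 of 76 mitochondrial ribosomal proteins and 7 of 31 translation factors. In these lists 0 passed as higher, and the medians were -0.47, -0.33 and -0.19. Over all genes 7.53% passed as lower and 2.62% as higher, with a median of -0.12. The assembly factors BYSL (-1.08 ± 0.17) and RRP9 (-0.94 ± 0.16) led the first list. With equal medians the counts of lower genes were 4, 3 and 1, and 1 translation factor was higher. With quantile normalization 10, 11 and 4 were lower. Of the 14 mTORC1 pathway genes 1 passed as higher in limma, TSC1 (0.78, adjusted p = 0.0405). The 2 that passed as lower were MYC (-0.98, adjusted p = 0.0182) and RPS6KB1 (-0.74, adjusted p = 0.0259). With equal medians 2 of the 14 were higher and 1 lower, and with quantile normalization 1 was higher and 1 lower.

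The paralogs of ribosomal protein genes, which code for tissue-restricted or alternative forms, were few. Of 6 measured paralogs 2 passed as higher in AGS and 4 as lower, in a comparison where 60.4% of all genes passed. RPS27L, a p53-inducible paralog of RPS27, was at 9211.57, 9218.31 and 9687.6 for AGS and at 2078.12, 1900.94 and 3531.06 for HGC-27, a difference of 1.96. RPL26L1 read 2004.11 to 2196.73 in AGS and 4429.08 to 6495.72 in HGC-27 (-1.43), and RPL22L1 read 2555.24 to 3518.07 in AGS and 3797.42 to 4316.88 in HGC-27 (-0.45). In all 3 the lines did not overlap. Of all genes, 42.4% were higher and 33.8% lower in AGS in every condition, which asks less than no overlap. RPL22, the counterpart of RPL22L1, read within 10222 to 11491.3 on all 6 arrays by its brightest set, while its plain _at set was lower in AGS in every condition (-0.41 in parental cells, -0.44 in the GFP controls, -0.58 with MIST1), which is about the size seen for RPL22L1.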

How the data were processed

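For each of 6 arrays the table deposited by the authors holds 54675 probe sets, with values that were taken as intensity on a linear scale from their range. The series design text names dChip; the sources used here do not state the background correction or scaling. The platform annotation gives 41097 probe sets 1 gene. The members and lists were chosen with earlier results of these data known.

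Deposited intensities under the 25th percentile of the table (17.6) were raised to it, and log2 was taken without further scaling. A probe set was kept if 2 or more of its 6 values exceeded the overall median (50.53), and each gene was read by its single-gene probe set with the highest mean, giving 13738 genes. Tests were run with limma 3.58.1 under R 4.3.3 (lmFit, eBayes with a trend), two-sided, with Benjamini-Hochberg adjustment over all genes and a threshold of 0.05. The fits had 2 residual degrees of freedom. Cell line was the block in comparisons of conditions and condition the block between lines. The pairing comes from the cell line named in the labels. Over the genes tested, correlations ran from 0.971 to 0.996 within a line and from 0.692 to 0.719 between lines. The script was tested on simulated data with known changes.

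Named genes were the members past the threshold, up to 10 in each direction, then those with the largest change of the same sign in both lines or in all conditions, and members with a known role; where none or few passed, up to 3 in each direction are given. Fold changes are on the floored log2 scale and understate changes of dim probe sets. Start windows came from RefSeq (GRCh38.p14), matched by symbol, for 46 members. Precision is limited by how few arrays there are. Alternatives were other floors, no filter, 2 scalings, other probe set rules, no trend, no block, only the arrays compared, and leaving out each array.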

Additional observations from a re-analysis of the deposited data

Results flagged for a closer look

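In 5 members the response to transfection differed between the lines by the interaction term of the limma fit. The difference of AGS from HGC-27 was -0.32 for RPL36, -0.30 for RPL14, -0.28 for RPL29, -0.26 for RPL35A and -0.22 for RPS7 on the log2 scale. The share of members that passed (9.62%) was near that of all genes (10.1%), and 4 of the 5, all but RPL14, lie near the top of the measured range. Array medians over the genes tested moved in opposite directions in the 2 lines, and their part in these differences was not tested beyond the change of scaling given with the other settings.

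RPL36A moved in opposite directions in the lines under MIST1 against the GFP control, with a difference of 0.50 in HGC-27 and -0.12 in AGS. Each is a difference of 2 single arrays on a probe set near the median of all values, and the difference between the lines was not tested. No group has 4 or more arrays, so no array was compared with its group for outlying values.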

How the results depend on the processing

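For MIST1 against the GFP control 0 members passed in every alternative run. The median member ranged from -0.049 to 0.0078 without 1 array, and was 0.00060 with equal medians and -0.022 with quantile normalization. Signs of members that never passed turned: RPS19 (-0.015) and RPS15A (-0.15) with the mean of all probe sets, and, without 1 array, RPL29 (-0.023 to 0.13), RPS15A (-0.015 to 0.058) and RPL36 (-0.17 to 0.020). For the GFP control against parental cells 0 to 22 members passed without 1 array and 1 with only the 4 arrays compared. The median was -0.032 with quantile normalization and -0.024 with equal medians, and RPS19 stood at -0.012 with the mean of all probe sets. For MIST1 against parental cells 0 members passed with the floor at the median, the floor at 1, no filter, the mean of all probe sets, no trend or no replicate block. With quantile normalization (median -0.047), equal medians or only the 4 arrays compared 1 passed, and without 1 array 1 to 20. RPS19 stood at -0.027 with the mean of all probe sets.

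Between the lines 14 members passed, against 4 with no filter or no trend, 23 with quantile normalization or the mean of all probe sets, 27 with equal medians (median -0.16, RPS27 at -0.050), 7 to 35 without 1 array, and 34 with only the 4 transfected arrays, a setting chosen after seeing the data. In the interaction 0 members passed with the floor at the median, no filter or no trend, 2 with quantile normalization and 3 with equal medians (median 0.12). The median was -0.12 with the mean of all probe sets and -0.12 to -0.080 without 1 array. Without a parental array the interaction cannot be fitted. The causes of these changes were not tested, other than that fewer arrays leave fewer degrees of freedom.

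Leaving out the replicate block (cell line) changed the count for MIST1 against parental cells from 2 to 0. Without a block 0 members passed for MIST1 against the GFP control and for the GFP control against parental cells, and 10 between the lines. Counting _s_at with _x_at sets gave 42 members in place of 14. At 1.2-fold 6 members in AGS passed for the GFP control against parental cells (44.71% of all genes), and 1 in AGS (13.44%) and 2 in HGC-27 (17.99%) for MIST1 against the GFP control. At 2-fold 0 did in HGC-27 for the former. RPLP2 with the floor at the median has no value for MIST1 against the GFP control. Signal near the array maximum and single arrays per condition limit all of these values.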
